A study of Mus musculus with 4 samples.

Results

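The genes described here are 9 lectin-like receptor genes of natural killer (NK) cells, namely Klra1, Klra3, Klra4, Klra7, Klra8, Klrb1c, Klrc1, Klre1 and Klrk1, together with the kinase gene Styk1. They were taken by symbol as 10 of the 31053 genes in the count matrices, and their raw UMIs (unique molecular identifiers, each counting 1 captured transcript) were followed across cell gates and between genotypes. The 10 had been chosen by their measured levels in NK, T and monocyte gates and by their difference between genotypes, so both are given below as a description. Where calls of the fit over all genes are counted for them between genotypes, nothing is read from the counts. Single live CD45.2+ cells, the leukocytes of the lung, had been sorted at 10 weeks of age from 4 mice of strain C57BL/6J. In WT, with 2 mice, the genotype was Lmna-flox/flox Vav1-cre-/-, and in knockout, also with 2 mice, it was Lmna-flox/flox Vav1-cre+/-, so the floxed Lmna alleles were present in all 4. Vav1-cre is active in blood-forming cells and their descendants, and Lmna encodes the nuclear envelope proteins lamin A and lamin C.

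NK cells are innate lymphocytes that kill infected or transformed cells and release interferon-gamma. They weigh activating against inhibitory receptors, many of which are C-type lectin-like proteins encoded side by side in the NK gene complex. Each NK cell switches on its own subset of the Klra genes (the Ly49 family), so receptors differ between cells of 1 mouse, and the complex itself differs between mouse strains.

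By their roles, Klra4 (Ly49D) and Klra8 (Ly49H, which binds a cytomegalovirus protein) encode activating receptors. Klra1 (Ly49A), Klra3 (Ly49C) and Klra7 (Ly49G) encode inhibitory receptors for classical MHC class I molecules. Klrc1 encodes NKG2A, the inhibitory partner of CD94, and Klrk1 encodes NKG2D, an activating receptor for stress-induced ligands. Klrb1c encodes NK1.1, the surface antigen by which NK cells of this strain are usually stained, and Klre1 encodes a receptor chain that pairs with the products of Klri1 and Klri2. Styk1 encodes a membrane-anchored kinase-like protein, also called NOK, that is no lectin.

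All 10 genes lie on chromosome 6, between position 128778485 at the end of Klrb1c and position 131353597 at Styk1, an interval of 2.58 Mb on GRCm38 (mm10) by the GENCODE M21 annotation. The 5 Klra genes lie on the minus strand in the order Klra4, Klra8, Klra7, Klra3, Klra1. To show how alike and how unlike these neighbours are where their transcription starts, the 250 bases upstream of a RefSeq start of 4 of them (GRCm38.p6) are printed 5′ to 3′ on the gene's strand. Capitals mark an E-box, CATCTG or its reverse complement CAGATG, searched on both strands.
Klra4, chr6:130067272-130067521, minus strand: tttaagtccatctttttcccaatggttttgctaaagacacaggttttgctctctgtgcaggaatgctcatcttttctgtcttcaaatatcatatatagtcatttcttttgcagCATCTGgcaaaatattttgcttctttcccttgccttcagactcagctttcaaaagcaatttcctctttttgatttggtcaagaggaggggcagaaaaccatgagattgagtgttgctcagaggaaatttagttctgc
Klra8, chr6:130129899-130130148, minus strand: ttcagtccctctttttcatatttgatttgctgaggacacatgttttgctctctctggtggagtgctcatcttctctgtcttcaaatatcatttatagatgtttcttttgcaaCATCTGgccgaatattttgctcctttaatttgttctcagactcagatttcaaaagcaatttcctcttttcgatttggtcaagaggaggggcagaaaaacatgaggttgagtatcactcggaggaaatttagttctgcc
Klra7, chr6:130233323-130233572, minus strand: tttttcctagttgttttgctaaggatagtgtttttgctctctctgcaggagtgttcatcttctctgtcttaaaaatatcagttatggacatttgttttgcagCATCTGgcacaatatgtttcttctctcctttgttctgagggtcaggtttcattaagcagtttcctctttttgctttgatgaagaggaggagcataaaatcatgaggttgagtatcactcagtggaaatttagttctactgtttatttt
Klra1, chr6:130386875-130387124, minus strand: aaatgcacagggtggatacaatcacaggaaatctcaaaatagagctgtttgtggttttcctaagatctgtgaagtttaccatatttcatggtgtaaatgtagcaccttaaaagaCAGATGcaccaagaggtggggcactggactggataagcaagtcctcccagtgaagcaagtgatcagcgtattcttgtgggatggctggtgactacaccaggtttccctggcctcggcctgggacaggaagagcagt
None of the 4 windows overlaps an exon of GENCODE M21. The windows of Klra4 and Klra8 were identical at 84.8% of positions in a global alignment, and the Klra7 window matched them at 77.6% and 78.0%. The Klra1 window matched those 3 at 48.0% to 51.6%, and a window of Klra3, not printed, matched them at 52.0% to 55.2%. The Klra3 window holds, further inside it, a stretch like that with which the Klra8 window begins. Identity over whole windows thus depends on where the RefSeq starts lie, and the low Klra3 values do not measure how unlike the sequences are. A second RefSeq start of Klra7, whose window is also not printed, matched Klra4 and Klra8 at 51.2% and 52.0%. The E-box letters occurred once in each printed window and in neither the Klra3 window nor that of the second Klra7 start, and 14.4% of the 32851 RefSeq windows of the same length hold them. The letters TGTGGT of the RUNX core motif or their reverse complement, held by 14.0% of windows, occurred in the Klra1 window and in none of the other 3.

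Libraries and values are given throughout in the order of the replicate numbers 1 and 2 within a genotype. Across the 4 libraries, 3591 to 3941 cells per library passed the filters (at least 200 genes and at most 10% mitochondrial UMIs), from 21780914 to 27045250 UMIs per library. Cells were assigned to 10 marker gates by genes other than the 10 described. The NK gate required 3 of the 6 genes Ncr1, Eomes, Tbx21, Gzma, Prf1 and Nkg7 and no UMI of the CD3 genes, Cd79a or Ms4a1, and its size was 306 and 197 cells for WT and 216 and 252 cells for knockout, with median depths of 4040 to 4744 UMIs. The libraries shared 2 to 7 cell barcodes by pair, and none of these barcodes was in the NK gate of both libraries of a pair. In NK gate cells Lmna stood at 24.97 and 27.7 CPM (UMIs of a gene per 1000000 UMIs of the gate in that library) in WT and at 4.19 and 10.0 in knockout (log2 fold change -1.79 ± 0.40 SE, adjusted p = 0.0134 by the edgeR quasi-likelihood test with Benjamini-Hochberg adjustment). Both knockout libraries were also below both WT libraries in B cells, CD4 T cells, CD8 T cells without Ccl5 and alveolar macrophages. The genotypes overlapped in CD8 T cells with Ccl5 (44.5 and 11.3 CPM in WT, 12.9 and 14.3 in knockout), in classical monocytes (34.6 and 15.9 against 23.9 and 16.7) and in nonclassical monocytes (0.683 and 6.91 against 6.30 and 5.52), γδ T cells had Lmna UMIs in WT 1 alone, and in neutrophils the knockout libraries were the higher (0 and 5.40 against 7.56 and 10.3). The labels do not give the floxed exons, and 3-prime-end counts outside a deleted part would check nothing. The Lmna call was lost without WT 1 (-1.88, adjusted p = 0.0542) and without knockout 1 (-1.35, adjusted p = 0.155), also by edgeR. WT 2 stood apart in its cells outside every gate (1112, against 743 to 804 elsewhere) and in B cell markers within the NK gate, which summed to 597.5 CPM there and 144.6 to 178.4 in the other 3.

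Most UMIs of these genes came from the NK gate. The share of a gene's UMIs in kept cells that fell in the NK gate ranged over libraries from 81.0% to 86.2% for Styk1, from 84.7% to 87.2% for Klra4 and from 79.3% to 91.0% for Klra8. It was lowest for Klrc1, at 43.7% in knockout 1 and 68.5% to 79.2% elsewhere, and for Klrk1, at 55.2% to 76.0%. B gate cells, which should lack these receptors, had a UMI of any 1 of the genes in at most 1.95% of cells (Klrk1 in knockout 2), at median depths of 3443 to 3929 UMIs. This share served as a background. The parts of free RNA in droplets and of doublets in it were not tested. Mean Klrk1 levels, given below, were higher in the B gate than in neutrophils and alveolar macrophages in both genotypes. The B gate thus does not give a level of free RNA for all gates. The plot of levels by gate shows the NK column highest for all 10 genes in both genotypes.

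**Figure D1:**
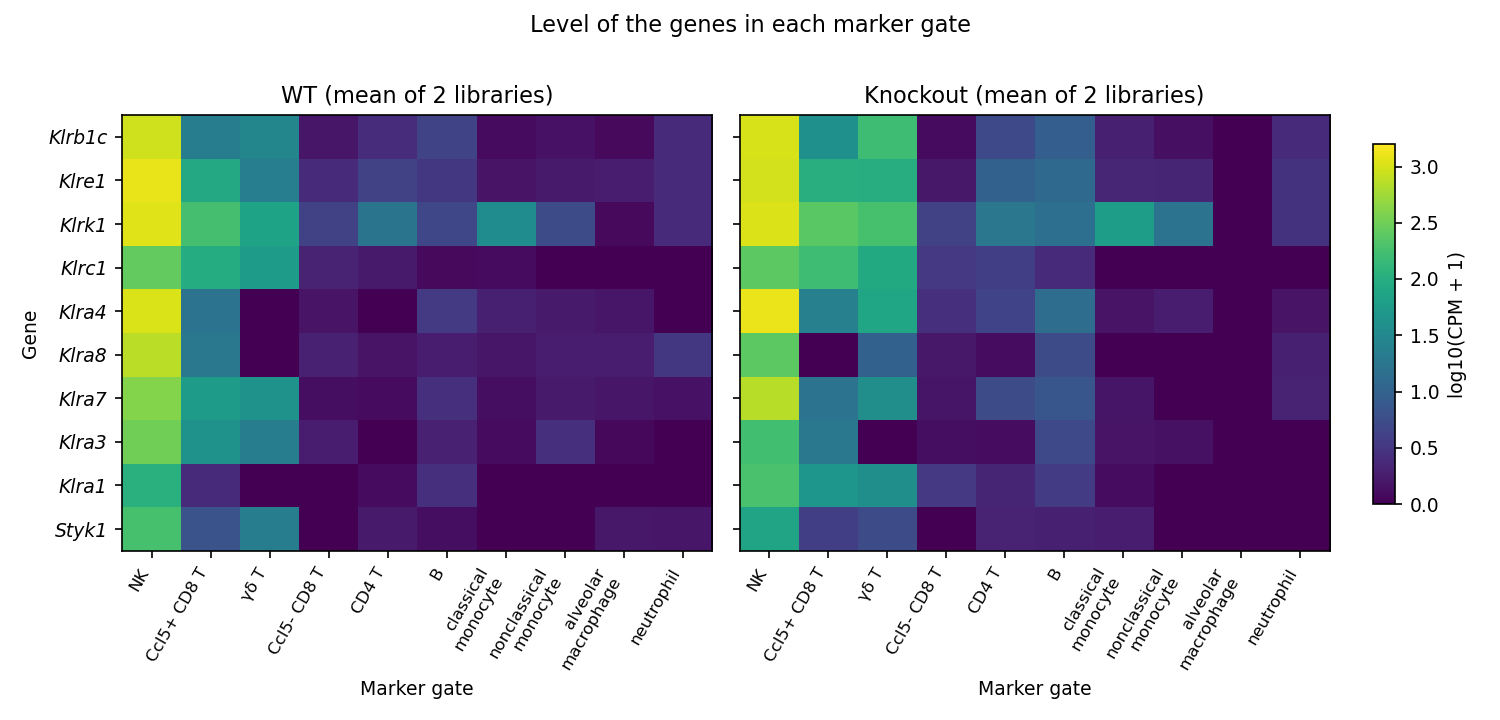
Heat maps of the mean level of each gene (rows) in each of 10 marker gates (columns) over the 2 WT libraries (left) and the 2 knockout libraries (right), as log10(CPM + 1). The NK column is the highest for all 10 genes, and Klrk1 is the only row above 20 CPM in classical monocytes, where it ranged from 27.6 to 64.4 over the 4 libraries.

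Outside the NK gate, the receptors shared with T cells were found in CD8 T gate cells that carried Ccl5, a chemokine gene of effector and memory cells. Klrk1 stood there at 159 and 204 CPM in WT and at 267 and 212 in knockout. Klrc1 stood at 44.5 and 143 in WT and at 234 and 83.1 in knockout, so the genotypes overlapped and 1 library of each was high. Klre1 ranged from 61.2 to 134 in the same gate. CD8 T cells without Ccl5 had at most 4.85 CPM of any of the 10. In γδ T cells, of which there were only 10 to 23 per library, Klrk1 ranged from 0 to 196 CPM and Klrb1c from 0 to 204, ranges that overlap those of the Ccl5+ CD8 T gate.

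Klrk1 was also found in classical monocytes. In classical monocytes it had 27.6 and 41.6 CPM in WT and 64.4 and 55.7 in knockout, with a UMI in 19.1% and 20.6% of WT cells and 27.7% and 29.5% of knockout cells. These cells were deep, at medians of 9900 to 10846 UMIs, and after thinning every cell to 2000 UMIs the shares were 3.87%, 7.07%, 5.65% and 11.4% (in the library order WT 1, WT 2, then knockout 1, knockout 2), against at most 1.14% in B gate cells thinned alike. Nonclassical monocytes had 5.46 and 3.46 CPM of Klrk1 in WT and 15.4 and 15.8 in knockout. Their means of 4.46 in WT and 15.6 in knockout were close in CPM to those of the B gate, 3.83 and 13.7, but not in the share of cells. A Klrk1 UMI was held on average by 2.63% of them in WT and 6.64% in knockout, against 0.721% and 1.45% of B gate cells. Mean shares after thinning were 0.221% in WT and 2.88% in knockout, against 0.265% and 0.888% in B gate cells. Mean Klrk1 levels in WT and knockout were 1.44 and 1.94 CPM in neutrophils and 0.202 and 0 in alveolar macrophages. The part of free RNA and of doublets in these values was not tested. By CPM, the 2 knockout libraries were above the 2 WT libraries in both monocyte gates. The thinned shares in classical monocytes overlapped between genotypes, with WT 2 above knockout 1. The other 9 genes stayed at or below 3.60 CPM in the monocyte, macrophage and neutrophil gates.

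The genes most like each Klra gene and Styk1 were sought over 40 sums (10 gates in 4 libraries) among 7684 genes with at least 10 CPM in the NK gate, by Pearson's r of log2(CPM + 1). These sums share libraries and depth, and the values are a description. Klra4 was closest to Cma1 (r = 0.96), the mast cell protease gene also carried by mature NK cells, then to Ncr1 (0.95), which encodes the receptor NKp46, and Klra9 (0.92). Klra1 was closest to Ncr1 (0.91), Tshz3 (0.91) and Klra9 (0.91), and Klra7 to Klra9 (0.91), Pik3r1 (0.90) and Dapk2 (0.90). Klra8 was closest to Klri2 (0.90), Cma1 (0.90) and Cdh22 (0.89). Styk1 was closest to Clnk (0.91), a signalling adaptor, Klrb1f (0.89) and Klrc3 (0.89), and Klra3 to Clnk (0.91), Klrb1a (0.86) and Klrc3 (0.85).

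Between genotypes the size of the NK gate overlapped. It held 7.76% and 5.08% of kept cells in WT and 5.73% and 7.02% in knockout. The log2 difference of -0.01 ± 0.33 SE (adjusted p = 0.973 over 10 gates, edgeR) was well inside the spread between mice. An exact two-sided permutation test of 2 against 2 libraries gave p = 1, and the smallest p it can give is 0.333. Within NK gate cells, the levels of the 10 genes moved in both directions.

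The kinase gene Styk1 was lower in the knockout libraries. It stood at 186 and 184 CPM in WT and 59.7 and 84.2 in knockout, so both knockout libraries were below both WT libraries. Cells with a Styk1 UMI made up 49.3% and 44.7% of WT NK gate cells and 18.1% and 28.2% of knockout NK gate cells. After thinning to 2000 UMIs these shares were 26.7%, 27.0%, 7.69% and 13.5%, with exact binomial 95% intervals of 21.7% to 32.2% in WT 1 and 9.50% to 18.5% in knockout 2, which cover counting error only. A cell with Styk1 held on average 1.82 and 1.89 UMIs of it in WT and 1.46 and 1.54 in knockout. The fitted log2 fold change was -1.34 ± 0.16 SE (n = 2 against 2 mice).

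The activating receptor gene Klra8 was also lower in both knockout libraries, but by unequal amounts. It stood at 784 and 685 CPM in WT, and at 120 in knockout 1 and 378 in knockout 2. A UMI of it was found in 61.8% and 52.3% of WT cells, 23.6% of knockout 1 cells and 44.4% of knockout 2 cells. Cells with 6 or more UMIs were 28.1% and 22.8% in WT, 1.85% in knockout 1 and 12.3% in knockout 2. The log2 fold change of -1.53 had an SE of 0.73, and it was -2.64 without knockout 2 and -0.94 without knockout 1. The 2 knockout mice thus differed more from each other than the 2 WT mice did.

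The inhibitory gene Klra3 had the same pair of unequal knockout libraries, at 76.5 CPM in knockout 1 and 265 in knockout 2, against 377 and 264 in WT. Here knockout 2 lay between the WT libraries, and the groups overlapped (log2 fold change -0.88 ± 0.79 SE). The value was -2.12 without knockout 2 and -0.27 without knockout 1. Of all 50-base windows in the last 500 bases of Klra3 transcripts, 31.5% are identical to a stretch of another gene (Klra8, Klra9, Klra10 or a pseudogene), and 13.1% of those of Klra8, so reads of these 2 genes can be shared or dropped, and the part of this in their values was not tested.

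The inhibitory gene Klra1 was higher in knockout, and it was spread over cells differently. It stood at 108 CPM in both WT libraries and at 185 and 194 in knockout (log2 fold change 0.81 ± 0.14 SE). In WT, 10.5% and 9.64% of NK gate cells held a Klra1 UMI, and the median such cell held 5. In knockout, 48.6% and 47.2% held one, and the median such cell held 1. Cells with only 1 or 2 UMIs were 2.94% and 1.02% of WT cells and 41.2% and 37.3% of knockout cells, while cells with 6 or more were 3.92% and 3.05% in WT and 0.463% and 2.78% in knockout. After thinning to 2000 UMIs the shares with a UMI were 8.90%, 8.11%, 29.8% and 25.4%, and in B gate cells at most 0.497%. Klra1 was thus found in few WT cells at several UMIs each, and in many knockout cells at 1 or 2. Of its end windows, 6.96% are shared with 1 other gene, Klra4.

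**Figure D2:**
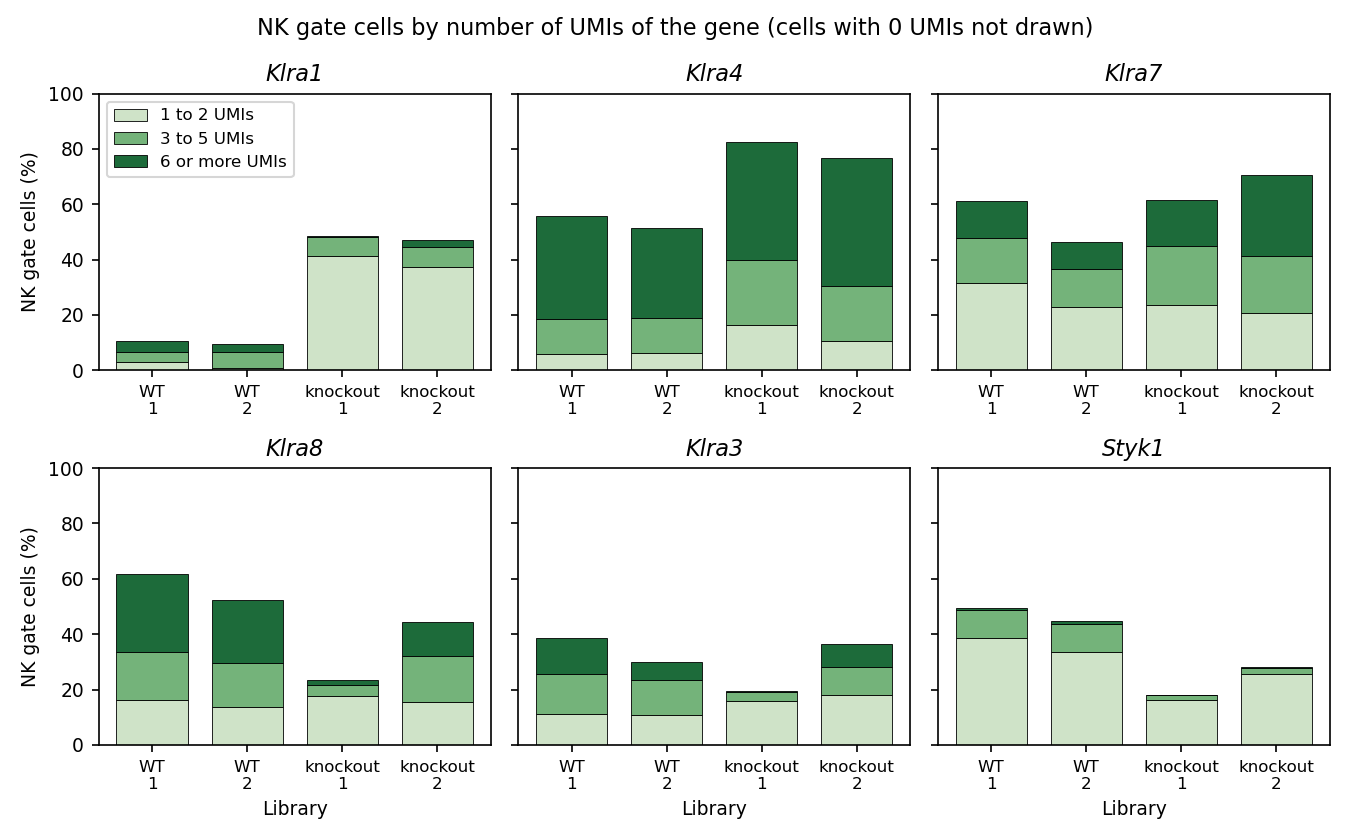
Stacked bars of the share of NK gate cells (y axis, %) with 1 to 2, 3 to 5 and 6 or more UMIs of 6 genes (panels) in each of the 4 libraries (x axis). The Klra1 panel shows tall bars of 1 to 2 UMIs in both knockout libraries (41.2% and 37.3%) and short bars in WT (2.94% and 1.02%), and the Klra8 and Klra3 panels show knockout 1 below knockout 2.

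The activating gene Klra4 and the inhibitory gene Klra7 were higher in both knockout libraries. Klra4 stood at 1053 and 1015 CPM in WT and 1204 and 1385 in knockout (log2 fold change 0.32 ± 0.12 SE). The share of NK gate cells with a Klra4 UMI was 55.9% and 51.3% in WT and 82.4% and 76.6% in knockout, and cells with 1 or 2 UMIs of it were 5.88% and 6.09% in WT and 16.2% and 10.7% in knockout. Klra7 stood at 452 and 353 in WT and 634 and 799 in knockout (0.82 ± 0.14 SE), with a UMI in 61.1% and 46.2% of WT cells and 61.6% and 70.6% of knockout cells. For Klra7 the first WT and the first knockout library thus had nearly the same share of cells, and cells with 6 or more UMIs were 13.4% and 9.64% in WT and 16.7% and 29.4% in knockout. Of the end windows of Klra7, 22.1% are shared with a pseudogene, Klra13-ps, and of those of Klra4 4.66% with Klra1.

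The other receptor genes include 3 that nearly every NK gate cell held (Klrb1c, Klrk1 and Klre1). Klrb1c had 963 and 871 CPM in WT and 1053 and 965 in knockout (log2 fold change 0.13 ± 0.12 SE), and the higher WT library nearly met the lower knockout library. Klrk1 had 1033 and 1182 in WT and 1007 and 1168 in knockout (-0.03 ± 0.13 SE), and Klrc1 had 224 and 312 in WT and 204 and 294 in knockout (-0.08 ± 0.21 SE). For both, the genotypes overlapped. Of the end windows of Klrc1, 43.5% are identical to a stretch of Klrc2 or Klrc3, the largest share among the 10 genes, and the part of this in its values was not tested. Those of Klrb1c are shared at 17.8%, with Klrb1a, Klrb1b and others, and those of Klre1, Klrk1 and Styk1 not at all. Klre1 had 1250 and 1260 in WT and 847 and 1040 in knockout (-0.41 ± 0.13 SE), and cells with 6 or more UMIs of it were 51.0% and 46.7% in WT and 21.3% and 41.3% in knockout.

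**Figure D3:**
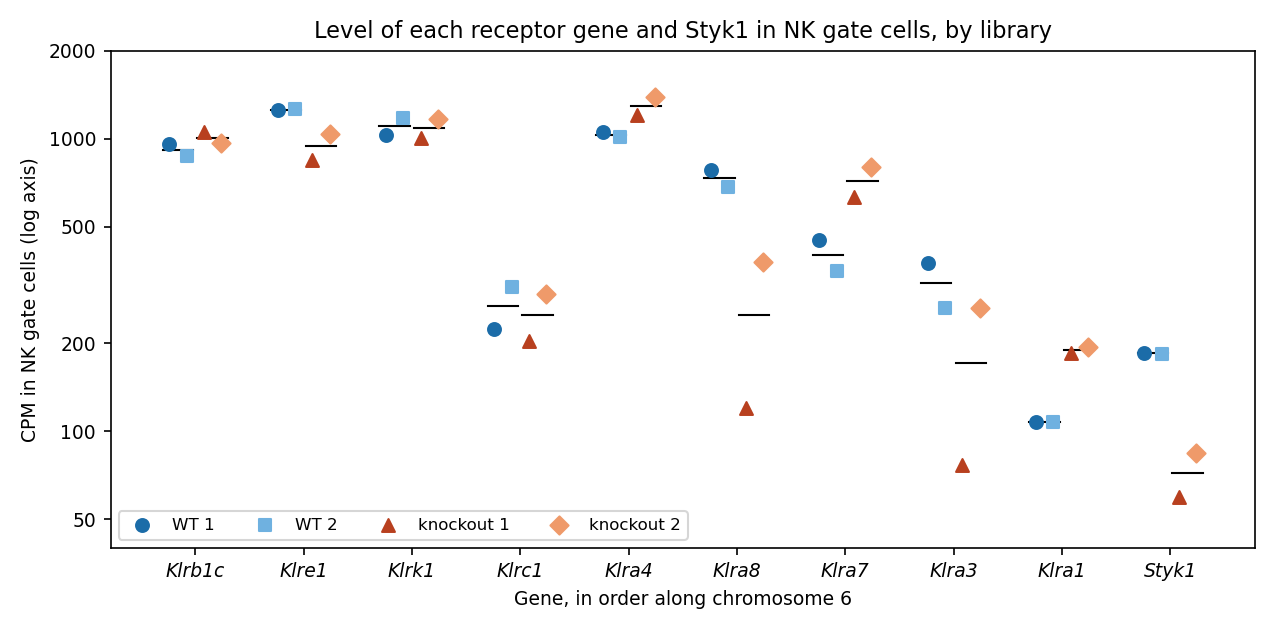
CPM (y axis, log scale) of the 10 genes (x axis, in chromosomal order) in NK gate cells of each library, with horizontal lines at the mean of each genotype's 2 libraries. Both knockout points lie below both WT points for Klre1, Klra8 and Styk1 and above them for Klrb1c, Klra4, Klra7 and Klra1.

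In the fit over 8046 genes of the NK gate, all 10 passed the filter on low counts, and 3 of the 10 were called at adjusted p under 0.05 (Klra1 and Klra7 higher, Styk1 lower), where 0.671% of all genes tested were called. By direction, 9 genes (0.112%) were called higher and 45 (0.559%) lower. In 7 of the 10 genes the knockout libraries lay outside the WT libraries, against 37.2% of all genes tested. They lay above in 4 (19.3% of all) and below in 3 (17.9% of all), and nothing is read from the calls or from either count because the genes were chosen with this contrast in view. The median absolute log2 fold change was 0.61 over the 10 and 0.18 over all genes, and for the same reason nothing is read from this difference. With a replicate block Klre1 was called too, in a fit that called 65 of 8046 genes, and nothing is read from this either. Leaving out a library moved the log2 fold changes of Klra8 and Klra3, as given above. When a library is left out, 1 mouse is assumed to vary like the others.

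Other values moved with genotype in the NK gate beside these genes. The 6 dissociation-response genes (Fos, Jun, Junb, Egr1, Hspa1a and Hspa1b) summed to 999 and 973 CPM in WT and 1237 and 1203 in knockout, with Hspa1a at 0 in all libraries but WT 1. The 4 alveolar macrophage markers summed to 31.0 and 14.4 in WT and 6.29 and 5.41 in knockout, with Marco and Ear1 at 0 in 3 of the libraries. The 9 T cell markers summed to 227 to 295 and the 5 myeloid markers to 292 to 313, with the genotypes overlapping. The part of these in the values of the 10 genes was not tested.

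The partners of the receptors were taken from gene lists, and few of them moved with genotype. Of 26 other NK receptor genes in the files, 18 were tested, none was called higher and 1 was called lower. This was Klri2, whose product pairs with KLRE1, at 386 and 321 CPM in WT and 183 and 245 in knockout (log2 fold change -0.73 ± 0.15 SE, edgeR adjusted p = 0.00572, lower in 2 of 2 knockout libraries). The call was lost without WT 1 (-0.59, adjusted p = 0.0899) and without knockout 1 (-0.52, adjusted p = 0.155). Klrd1, the CD94 partner of NKG2A, had a log2 fold change of 0.23 ± 0.12 SE and was not called (adjusted p = 0.648). All 17 adaptor and signalling genes were tested, among them Tyrobp and Hcst, which carry the signals of the activating Ly49 receptors and NKG2D, and none was called. No gene was called among 8 tested ligands, 15 transcription factors, 7 maturation surface genes and 6 genes reported as Styk1 partners or of autophagy. All 6 of the last had negative log2 fold changes, from -0.0097 ± 0.18 SE (Akt1) to -0.31 ± 0.38 SE (Pik3r4). Their median was -0.25 against 0.00 over all genes, and their shared sign was not tested. Of 10 tested effector genes 1 was called, Ifng, the interferon-gamma gene, at 75.6 and 63.2 in WT and 124 and 130 in knockout (0.85 ± 0.16 SE, adjusted p = 0.00364), and DESeq2 did not call it (adjusted p = 0.0982).

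A contrast inside the NK gate that the choice of the genes did not use was that of maturation. NK cells pass from a CD27+ to a CD11b+ stage, and cells with Cd27 but no Itgam (CD11b) or S1pr5 UMI were set against cells with Itgam or S1pr5 but no Cd27, with library as a block. The CD27 side held 18, 7, 15 and 21 cells (in the library order WT 1, WT 2, then knockout 1, knockout 2) and the CD11b side 203, 123, 135 and 142. Of the 10 genes, 2 were higher on the CD11b side and none lower, against 3.8% of the 4738 genes tested (65 higher, 1.37%, and 115 lower, 2.43%). The median log2 difference was 0.37 over the 10 and 0.02 over all genes.

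The inhibitory gene Klra3 rose from the CD27 to the CD11b side. It stood at 175, 0, 53.9 and 112 CPM on the CD27 side and 444, 285, 82.0 and 323 on the CD11b side, so it was higher in 4 of 4 libraries (log2 difference 1.50 ± 0.26 SE, edgeR adjusted p = 1.2e-05). The 0 in WT 2 rests on 7 cells. The call held under all 11 alternatives. Klrb1c rose from 774 ± 88.6 to 1029 ± 99.8 CPM (SD, n = 4 libraries), also in 4 of 4 libraries (0.45 ± 0.13 SE, edgeR adjusted p = 0.0204). This call was lost under 8 of the 11 alternatives, among them DESeq2 (adjusted p = 0.11) and leaving out WT 1, knockout 1 or knockout 2 (adjusted p of 0.117, 0.297 and 0.168).

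Styk1 did not pass the test between the sides over all 4 libraries. It stood at 48.5 and 55.1 CPM on the CD27 side and 192 and 213 on the CD11b side in WT, and at 53.9 and 77.3 against 59.8 and 82.2 in knockout. The CD27-side sums held only 103103, 36303, 92834 and 116416 UMIs of all genes in library order. The CD27-side values of Styk1 thus rest on few UMIs. Over all 4 libraries the log2 difference was 0.997 ± 0.331 SE (edgeR adjusted p = 0.0759), and Styk1 was called without knockout 1, without knockout 2, in the strict and the Ncr1 versions of the NK gate and with no count filter. The genotype difference of this effect was -1.89 ± 0.72 SE (adjusted p = 0.684 over all genes), so it did not pass the test. For none of the 10 did the subset effect differ between genotypes by this test, which called 4 of 4738 genes (0.0844%; 262 had an unadjusted p under 0.05, and DESeq2 called 0).

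**Figure D4:**
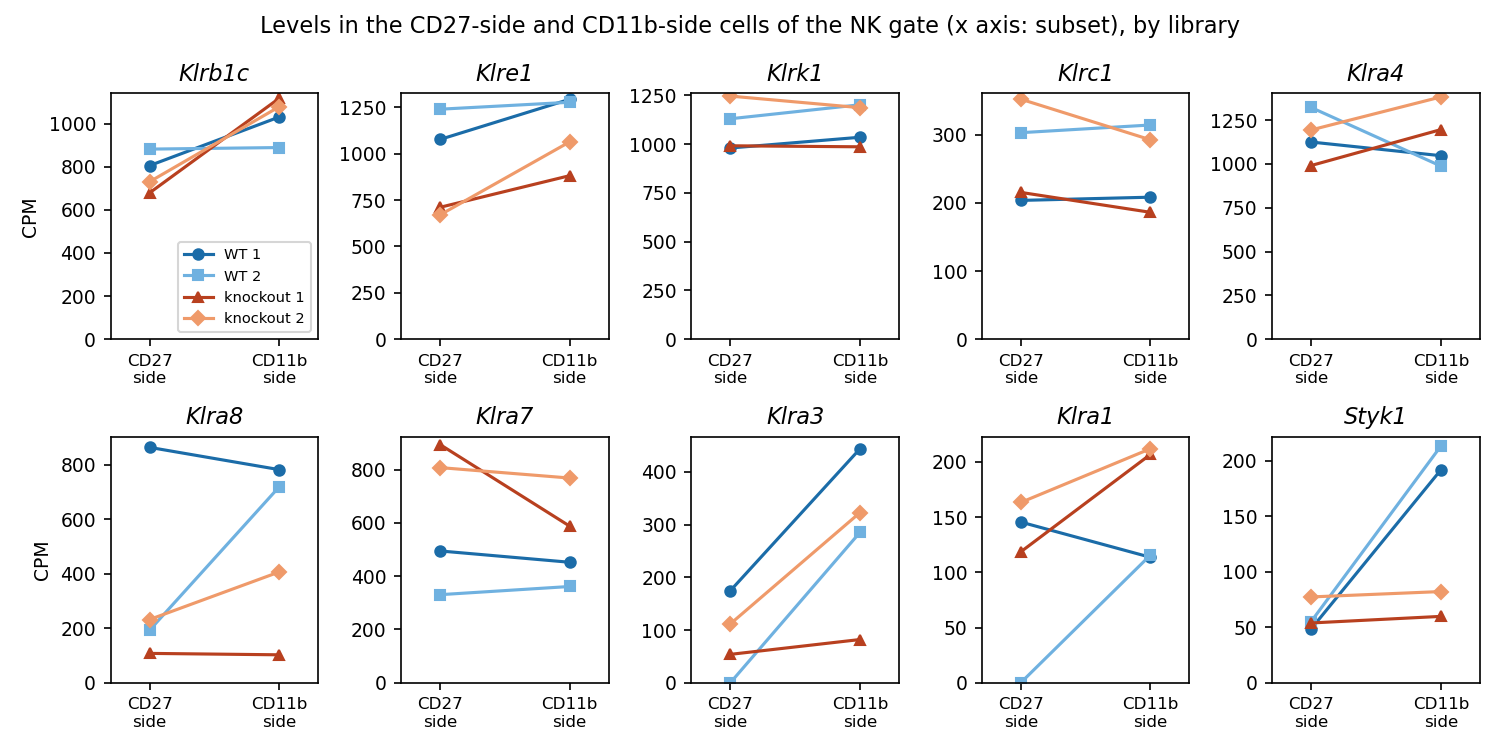
CPM (y axis) of each gene (panels) in the CD27-side and CD11b-side cells of the NK gate (x axis), with 1 line per library. The Klra3 lines all climb, and the Styk1 lines climb from 48.5 and 55.1 to 192 and 213 in WT and stay between 53.9 and 82.2 in knockout. The CD27-side points rest on 7 to 21 cells per library, and those of Styk1 on few UMIs.

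The remaining members were not called between the sides with the settings given above. Klre1 (0.34 ± 0.12), Klra8 (0.43 ± 0.20) and Klra1 (0.41 ± 0.26) had positive log2 differences (± SE) with edgeR adjusted p of 0.12, 0.375 and 0.611. Klre1 was called with no count filter (0.49, adjusted p = 0.0216), and Klra1 without the 5% deepest cells (1.53, adjusted p = 0.00364), also by edgeR. Klra4 (0.02 ± 0.12), Klrk1 (0.01 ± 0.11), Klrc1 (-0.13 ± 0.20) and Klra7 (-0.23 ± 0.15) lay near 0. Klra8 shows how few cells stand behind the CD27 side, at 863, 193, 108 and 232 CPM there and 781, 719, 103 and 406 on the CD11b side.

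The 2 sides were also checked against listed genes. Of 14 tested other receptors, Klrg1, an inhibitory receptor of mature cells (2.33 ± 0.28 SE, edgeR adjusted p = 1.6e-10), and Ncr1 (0.54 ± 0.12) rose on the CD11b side, while Cd160 (-1.19 ± 0.31) and Klri2 (-0.57 ± 0.18) fell. Of 15 tested transcription factors, Zeb2, a driver of NK maturation, rose (1.04 ± 0.16), and Tcf7 (-2.53 ± 0.32) and Eomes (-0.53 ± 0.16) fell. Of 7 maturation surface genes, Cma1 (2.41 ± 0.22), Cx3cr1 (2.76 ± 0.68) and Spn (0.80 ± 0.18) rose and Cxcr4 fell (-1.48 ± 0.21). Of 10 tested effector genes 6 rose, Ccl5 (1.12 ± 0.08), Gzma (1.08 ± 0.08), Gzmb (1.17 ± 0.13), Prf1 (0.70 ± 0.11), Nkg7 (0.44 ± 0.09) and Ccl3 (0.76 ± 0.20). Of 17 adaptor and signalling genes Fcer1g rose (0.41 ± 0.10), and of 7 ligands Clec2i fell (-1.58 ± 0.36). Leaving out 1 library ended some of these calls, with edgeR adjusted p of 0.0522 to 0.692. These were Klri2, Ncr1, Eomes, Spn, Cx3cr1 and Ccl3 without WT 1, Klri2, Cd160, Clec2i and Eomes without WT 2, Klri2, Fcer1g, Clec2i, Cx3cr1 and Ccl3 without knockout 1, and Klri2, Cd160, Eomes and Cx3cr1 without knockout 2. Gzma, Prf1, Nkg7, Ncr1 and Eomes also helped to define the NK gate. The dissociation-response genes summed to 1460 to 2305 CPM on the CD27 side and 800 to 1068 on the CD11b side, and the 6 innate lymphoid cell markers to 58.2 to 378 and 90.5 to 112. Their part in these differences was not tested.

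Within single NK cells, the Klra genes were combined rather than exclusive. After thinning to 2000 UMIs, an NK gate cell held UMIs of 1.92 and 1.72 of the 5 Klra genes on average in WT and 1.78 and 2.20 in knockout. Cells with none of the 5 were 12.7% and 14.6% in WT and 13.9% and 9.02% in knockout. The genotypes overlapped in both measures. Cells with 4 or 5 of them were few, and 5 were found together in 1.92% and 2.05% of knockout cells and in no WT cell of 292 and 185.

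Joint detection was measured for all 45 pairs as a Mantel-Haenszel odds ratio over quartiles of cell depth, where 1 means no association. Pairs with Klrb1c, Klre1 or Klrk1, which few cells lacked, rest on those few cells, and 3 of them reached 0 in knockout 1 (Klrb1c with Klra4, Klre1 and Klrk1). Klra4 with Klrc1 was below 1 in every library, at 0.149 and 0.197 in WT and 0.215 and 0.0648 in knockout. In WT 1, for example, 9.15% of cells held both where independence would give 19.4%. Klrc1 also had ratios below 1 in all 4 libraries with Klra3 (0.324 to 0.699), Klra7 (0.234 to 0.562) and Klra8 (0.343 to 0.731), and with Klra1 in 3 of 4 (0.536 to 1.23). In each mouse, UMIs of the NKG2A gene and of Klra3, Klra4, Klra7 or Klra8 thus shared a cell less often than without association. The part in this of the end sequence that Klrc1 shares with Klrc2 and Klrc3 was not tested.

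Among the Klra genes themselves, 7 of 10 pairs had ratios above 1 in all 4 libraries and none had ratios below 1 in all 4. Klra4 with Klra7 ranged from 3.24 to 6.51, Klra4 with Klra8 from 1.43 to 4.83 and Klra1 with Klra4 from 1.73 to 2.87. Klra3 with Klra8 stood at 1.65 and 1.97 in WT, 22.3 in knockout 1 and 1.88 in knockout 2, and in knockout 1 32 of the 42 cells with Klra3 also held Klra8. Klra3 shares end sequence with Klra8, and Klra1 with Klra4, as given above. The part of shared reads in the ratios of these pairs was not tested. Klra1 with Klra3 had ratios below 1 in 3 of 4 libraries (0.243 to 1.22). The ratios compare cells of 1 mouse and are given without a test.

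In Ccl5+ CD8 T gate cells (45, 37, 103 and 46 cells), 6 of the 10 genes passed the filter on low counts, and none was called between genotypes, where 0.0211% of 4732 genes were called (1 gene, Gm10076; 222 had an unadjusted p under 0.05, and DESeq2 called 7). Klra1 had 1 UMI in the 45 cells of WT 1 and 0 in the 37 cells of WT 2, which allows up to 11.3 CPM by 3 counts. It had 40 UMIs in knockout 1 and 13 in knockout 2, at 57.5 and 37.3 CPM. A Klra1 UMI was found in 2.22%, 0%, 21.4% and 21.7% of these cells, with exact binomial 95% intervals of 0.0562% to 11.8% in WT 1 and 10.9% to 36.4% in knockout 2. The knockout libraries thus lay above the WT libraries for Klra1 in this gate as in the NK gate. Klra7 stood at 86.3 and 26.4 in WT and 14.4 and 17.2 in knockout, and Klra8 at 13.9 and 22.6 in WT and at 0 UMIs in both knockout libraries (up to 4.31 and 8.60 CPM). The 0 counts of Klra8 rest on 103 and 46 cells.

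All 10 genes share their place in the NK gene complex. The files hold 49 genes between the outermost of the 10, and 15 of the other 39 were tested in the NK gate. Their median absolute log2 fold change between genotypes was 0.725, against 0.235 for 46 genes within 5 Mb outside the interval, 0.184 for 92 genes at 5 to 20 Mb, 0.175 for the rest of chromosome 6 and 0.181 for 7637 genes on other chromosomes. Without knockout 1 the value was 0.29, and without any 1 of the other libraries it was 0.539 to 0.693. Only Klri2 was called among these 15 (6.67%). This grouping by distance was chosen after values had been seen, and it is given without a test.

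**Figure D5:**
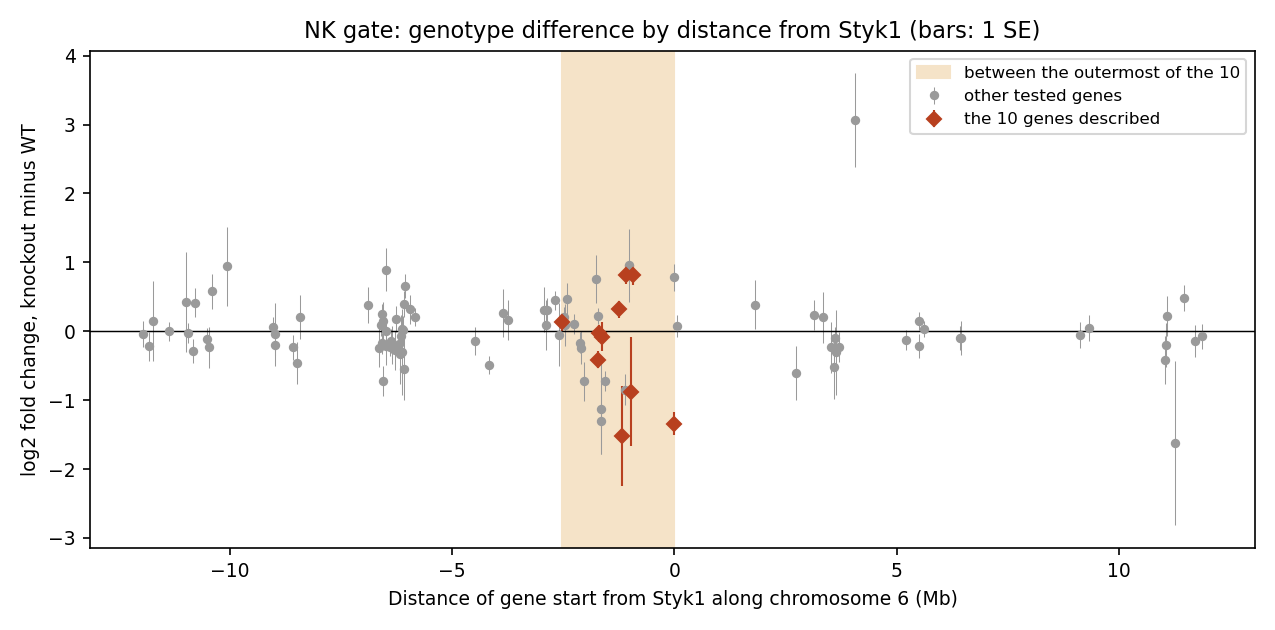
Log2 fold change between genotypes in the NK gate (y axis, knockout minus WT, bars of 1 SE) against distance of the gene start from Styk1 along chromosome 6 (x axis, Mb), for the 10 genes (diamonds) and other tested genes (circles). The start drawn is the lowest coordinate of a gene, which is the transcript end on the minus strand. The shaded interval runs from the Klrb1c point at -2.52 Mb to the Styk1 point at 0. It holds points on both sides of 0, from -1.53 (Klra8) to 0.95 (Klra10), and 1 gene outside it, Emp1, lies at 3.07.

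Some neighbours repeated the split between the 2 knockout libraries seen for Klra8 and Klra3. Klrc2, which encodes NKG2C, stood at 538 and 569 CPM in WT, 131 in knockout 1 and 366 in knockout 2. Klra9 stood at 532 and 611 in WT, and at 240 and 390 in knockout. Klra9 shares end sequence with both Klra3 and Klra8, and the part of shared reads in its split was not tested. Neither Klrc2 nor Klra9 was called (log2 fold changes -1.12 ± 0.66 and -0.85 ± 0.22 SE, edgeR adjusted p of 0.819 and 0.269). Magohb, next to Styk1, went the other way, at 51.3 and 56.5 in WT and 114 and 74.1 in knockout (0.78 ± 0.20 SE, adjusted p = 0.0523). In B gate cells, 15 genes of the interval other than the 10 had a median absolute log2 fold change of 0.151, against 0.161 on other chromosomes, and 2 of them were called lower, in a fit that called 1.82% of 10422 genes (1.68% lower and 0.144% higher). In the Ccl5+ CD8 T gate the value for 7 such genes was 0.179, against 0.244 on other chromosomes, and in classical monocytes it was 0.182 against 0.175. It was above that of other chromosomes in CD8 T cells without Ccl5 (0.224 against 0.172), CD4 T cells (0.249 against 0.191), nonclassical monocytes (0.363 against 0.192) and neutrophils (0.393 against 0.211), over 7 to 12 such genes per gate. Counts per gene do not show which allele a UMI came from, and allelic differences between the mice in this interval were not tested.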

How the data were processed

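Single lung leukocytes of 2 WT and 2 knockout mice were read by 3-prime-end RNA sequencing, 1 library per mouse. The values deposited by the authors are whole-number UMI counts of genes in cell barcodes. Cell Ranger 3.0.2, Seurat 3.0.0 and the build mm10 are named in the submitters' processing notes, and no further step is given in the sources used here. Features matched GENCODE M21 by identifier for 31011 of 31053 genes, and all 10 genes described matched.

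Cells were kept at 200 genes or more and 10% mitochondrial UMIs or less, and were gated by marker genes. A cell meeting more than 1 gate (86 to 100 per library) was left out, and no doublet caller was run, so the removal of the 5% deepest cells of each gate and library served as an alternative. UMIs were summed per library and gate and tested with edgeR 4.0.16 (quasi-likelihood, robust, TMM scaling, filterByExpr) under R 4.3.3, with Benjamini-Hochberg adjustment over all genes tested at 0.05. DESeq2 1.42.0, no filter, each library left out, a replicate block, 3 other NK gates and a 5% mitochondrial limit were further alternatives. Levels are CPM of the gate's summed UMIs and are not divided by transcript length, so they are compared between cells and not between genes. Shares were recomputed after thinning each cell to 2000 UMIs. Intervals are exact binomial at 95%, and the limit for 0 UMIs is 3 counts.

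The 10 genes and all gene lists were chosen with earlier results of these data known. The named genes are the 10, listed genes past the test (at most 6 per list), Lmna and the 3 genes most like each Klra gene and Styk1. Klrd1, Klrc2, Klra9, Magohb, Klra10 and Emp1 were named in addition where their values bear on a neighbour or partner. The labels give separate mice but no pairing. Replicates of a genotype differed by more than sampling noise (chi-square per degree of freedom of 2.07 in both genotypes of the NK gate). The labels do not say whether libraries were prepared together. On simulated counts for the NK gate contrast (8046 genes), 28 of 50 genes raised 2-fold and 50 of 50 raised 4-fold were recovered, with 5 of 7846 unchanged genes called. The simulation gave all genes the same spread between libraries and changed none of the genes with the lowest levels. Its figures do not cover genes that vary more between mice, such as Klra8 and Klra3.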

Additional observations from a re-analysis of the deposited data

Results flagged for a closer look

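Klra7 was picked out because its genotype difference went opposite ways in 2 gates. In the NK gate both knockout libraries were above both WT libraries (634 and 799 against 452 and 353 CPM). In the Ccl5+ CD8 T gate both were below (14.4 and 17.2 against 86.3 and 26.4), with a knockout mean of 15.8. In that gate the values rest on 10 and 6 UMIs in knockout and 31 and 7 in WT, and the difference between the gates was not tested.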

How the results depend on the processing

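In the NK gate genotype comparison, 9 genes higher and 45 lower became 3 and 22 by DESeq2, 23 higher with no count filter, and 14 to 23 higher and 34 to 84 lower when a library was left out. Replicate numbers did not deviate together (correlation of 0.0709 between same-numbered libraries over genes), and the fit with a replicate block called 14 genes higher. In the Ccl5+ CD8 T gate, 0 higher and 1 lower became 0 and 7 by DESeq2, 9 and 23 with no filter, 2 higher with the replicate block, 0 lower at the 5% mitochondrial limit, and 2 to 53 higher and 3 to 50 lower without a library. Between the NK subsets, 65 higher and 115 lower became 26 and 63 by DESeq2, 48 lower with no filter, 31 and 59 at the 5% mitochondrial limit, 32 and 37 without the 5% deepest cells, and 35 to 47 higher and 57 to 85 lower without a library. The genotype difference of the subset effect, 4 higher and 0 lower, became 0 higher by DESeq2, 2 with no filter, 2 higher and 1 lower with up to 1 CD3 UMI allowed, 2 higher at the 5% limit, 1 higher without the deepest cells, 2 lower in the strict gate, 1 lower in the Ncr1 gate, and 0 to 2 higher and 0 to 1 lower without a library. The causes were not tested.

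The log2 difference of the NK gate share, -0.01, was 0.010 with the replicate block, 0.021 in the Ncr1 gate, 0.0063 with up to 1 CD3 UMI and -0.28 to 0.33 without a library, and no setting called it. Between subsets the uncalled difference of Klra4 (0.02) was -0.017 by DESeq2, -0.068 in the strict gate, -0.015 in the Ncr1 gate and -0.065 to 0.11 without a library. That of Klra7 (-0.23) was 0.097 at the 5% limit and 0.020 without the deepest cells, and that of Klrc1 (-0.13) was 0.023 with no filter and 0.12 without the deepest cells. That of Klrk1 (0.01) was -0.015 by DESeq2, -0.0068 in the Ncr1 gate, -0.0067 with up to 1 CD3 UMI, -0.091 without the deepest cells and -0.016 to 0.060 without a library.

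The CD27 side held 7 to 21 cells per library. On counts simulated for the subset contrast (4738 genes), 28 of 50 genes raised 2-fold and 49 of 50 raised 4-fold were recovered, so real differences of 2-fold can be missed at this depth.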
